A study of Rattus norvegicus with 6 samples.

Results

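The cytochrome P450 genes of the CYP2A, CYP2D and CYP1 families were followed in rat liver after repeated dosing with the solvent tert-butyl alcohol, abbreviated tBA. The set was fixed by gene symbol and holds 10 genes, Cyp2a1, Cyp2a2, Cyp2d1 to Cyp2d5, Cyp1a1, Cyp1a2 and Cyp1b1, of the 15284 genes named on the array. They were read by 15 of its 61657 probes. Liver RNA came from 6 male Sprague-Dawley rats (Crl:CD(SD)), an outbred stock, which were 5 weeks old when purchased. The tBA group was 3 rats dosed at 1000 mg/kg/day, and the vehicle group was 3 rats. The labels disagreed on the vehicle, with purified water on the samples and corn oil in the treatment protocol. They also disagreed on the time, with 28 days in the series description and 9 weeks in the protocol. The labels did not say whether each array was a single animal's RNA beyond giving 3 animals and 3 arrays in a group. The p-values measure the spread between these arrays. Those from limma also draw each probe's variance towards the common variance of all probes tested.

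Cytochrome P450 enzymes are haem proteins of the endoplasmic reticulum that oxidise drugs, pollutants and steroids with electrons passed on by NADPH-cytochrome P450 reductase. CYP1 genes are the classic targets of the aryl hydrocarbon receptor (AhR), which pairs with Arnt on DNA once a planar aromatic ligand is bound. In rat liver CYP2A enzymes hydroxylate testosterone and are shaped by sex and growth hormone, whereas CYP2D enzymes oxidise many basic drugs and are regarded as little inducible.

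The 3 sequences that follow are shown because Cyp2d1, Cyp2d3 and Cyp2d5 share nearly the same promoter. They are 140 bases each from RefSeq's GRCr8 assembly, 5′ to 3′ on the minus strand of chromosome 7, ending before the transcription start. Capitals mark the 16 bases at which the 3 genes differ, and the other 124 were identical. The windows are chr7:115793452-115793591 for Cyp2d1, chr7:115802160-115802299 for Cyp2d3 and chr7:115784544-115784683 for Cyp2d5.
Cyp2d1: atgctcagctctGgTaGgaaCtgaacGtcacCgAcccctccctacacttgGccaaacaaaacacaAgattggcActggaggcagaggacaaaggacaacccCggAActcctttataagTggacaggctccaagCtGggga
Cyp2d3: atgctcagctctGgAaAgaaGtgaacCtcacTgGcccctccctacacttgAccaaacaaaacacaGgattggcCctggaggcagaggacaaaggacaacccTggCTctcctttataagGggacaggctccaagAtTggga
Cyp2d5: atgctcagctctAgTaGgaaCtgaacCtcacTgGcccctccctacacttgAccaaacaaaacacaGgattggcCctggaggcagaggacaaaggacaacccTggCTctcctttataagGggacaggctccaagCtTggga

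Of the 10 genes, 8 had an entry in the promoter table, and Cyp2a2 and Cyp1a1 did not. Over the 250 bases before the start, aligned without gaps at the best shift with at least 150 bases of overlap, Cyp2d1 and Cyp2d3 were 91.9% identical. Cyp2d1 and Cyp2d5 were 93.5% identical, and Cyp2d3 and Cyp2d5 were 97.2% identical. The other 7 pairs of CYP2D genes gave 32.9% to 37.4%, and Cyp2d2 and Cyp2d4 did not match the 3 in this window. The hexamer AGGNCA repeated after a single A, a letter form of the element bound by the liver factor HNF4-alpha, was found on either strand 77 bases before the start of Cyp2d1, 73 bases before that of Cyp2d3 and 112 bases before that of Cyp2d5. It occurred in 0.0807% of the promoters in the table over the same 250 bases. The letters TATAA were present in Cyp2a1, Cyp2d1, Cyp2d3, Cyp2d5 and Cyp1a2, against 24.0% of promoters. TTANGTAA, a form of the PAR bZIP element (2.04% of promoters), and TTCNNNGAA, the STAT5 element (7.67%), were in none of the 8 windows. A match or its absence describes these letters only.

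For CYP1 the stretches nearest to the start are shown because the AhR core letters GCGTG (25.9% of promoters, either strand) occurred in Cyp1b1 alone among the 8. They lay 81 and 20 bases before its start, and are in capitals in the window chr6:21094415-21094564, plus strand, 150 bases. In Cyp1a2, chr8:66978150-66978299 on the minus strand, 150 bases, the capitals mark overlapping TATAA matches, read on both strands. Rat Cyp1a2 had no GCGTG in the 250 bases searched.
Cyp1b1: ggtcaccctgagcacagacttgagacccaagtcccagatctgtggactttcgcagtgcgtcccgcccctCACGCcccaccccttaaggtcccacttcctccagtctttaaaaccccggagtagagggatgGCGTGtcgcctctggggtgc
Cyp1a2: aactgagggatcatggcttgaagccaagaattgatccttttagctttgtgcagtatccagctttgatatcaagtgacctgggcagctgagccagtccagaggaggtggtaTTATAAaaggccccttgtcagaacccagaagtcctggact

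Values are log2 of the processed signal minus the log2 of the array's 75th percentile over all probes, so 0 marks a probe at that percentile. Differences are tBA minus vehicle. The share of probes well above background ran from 61.5% to 66.9% of each array, without saturated spots. Arrays of 1 group correlated at 0.989 to 0.991 over the probes tested and arrays of different groups at 0.984 to 0.988. On slide 1 were all 3 vehicle arrays together with tBA replicate 1. The remaining tBA arrays, replicates 2 and 3, were on slide 2, and the scan days split in the same way. Hepatocyte markers such as Alb were abundant, with a summed linear signal of 4087 to 4445 times the 75th percentile in vehicle and 4015 to 4255 with tBA. Of the 37647 probes tested on the whole array, 42 (0.112%) had an adjusted p under 0.05, of which 26 were higher and 16 lower.

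No member was called in the comparison of tBA with vehicle, which asked whether dosing changed liver transcript levels. All 8 genes that could be tested had a higher mean with tBA, by 1.099 to 1.366 times. The largest difference was in Cyp2a1, the smallest in Cyp2d1. Of all 11094 genes tested, 0.0451% had an adjusted p under 0.05 by limma with Benjamini-Hochberg adjustment over 37647 probes, against 0 of the 8, and none of the 12 member probes tested passed. At an unadjusted p under 0.05 there was 1 member, Cyp2d3, which was higher, against 15.1% of all genes in either direction and 7.59% higher. The median difference was 0.25 for the 8 genes and 0.0023 for all genes tested, of which 50.4% were higher. In 4 of the 8 genes, all of them CYP2D, every tBA array exceeded every vehicle array, against 12.8% of all genes. With whole tissue, a change in the number of cells of a type and a change in RNA per cell cannot be told apart.

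**Figure D1:**
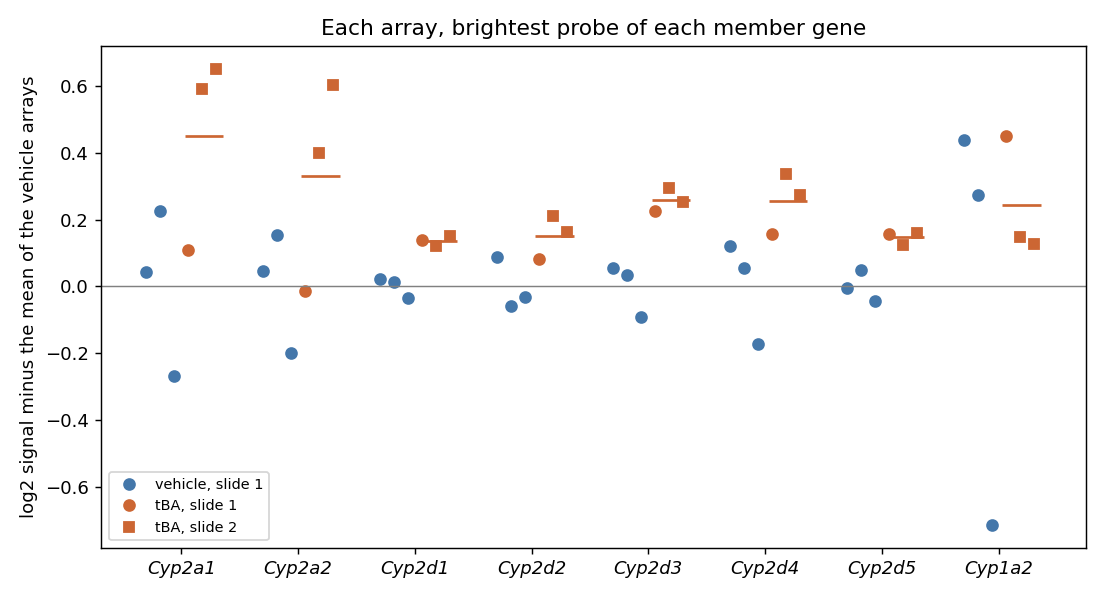
Log2 signal of each array minus the mean of the 3 vehicle arrays (y axis) for the brightest probe of the 8 genes tested (x axis); points are single arrays, circles are slide 1, squares are slide 2, and the bar is the tBA mean. The slide 2 arrays stand apart in Cyp2a1 and Cyp2a2, all 3 tBA arrays lie together in Cyp2d1, Cyp2d3 and Cyp2d5, and vehicle replicate 3 is far below the others in Cyp1a2.

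Cyp2a1 encodes the CYP2A testosterone hydroxylase that predominates in female rats. Its brighter probe read 5.05, 5.23 and 4.73 in vehicle replicates 1 to 3 and 5.11, 5.60 and 5.66 in tBA replicates 1 to 3. Only the slide 2 arrays, tBA replicates 2 and 3, exceeded all vehicle arrays, and tBA replicate 1 lay within the vehicle range. The difference was 0.45 (SE 0.20, 95% interval -0.02 to 0.92, adjusted p = 0.330 by limma). The dimmer probe read 3.47, 3.62 and 3.07 in vehicle and 3.45, 4.10 and 4.14 with tBA, a difference of 0.51 (SE 0.24, adjusted p = 0.347 by limma). Both probes thus put the same 2 arrays on top, and the gap between them varied over the 6 arrays with an SD of 0.072.

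Cyp2a2 encodes the related enzyme found in adult males. Its brighter probe read 5.78, 5.89 and 5.53 in vehicle and 5.72, 6.13 and 6.34 with tBA. Again tBA replicate 1 fell inside the vehicle range and the slide 2 arrays above it. The difference was 0.33 (SE 0.18, 95% interval -0.12 to 0.78, adjusted p = 0.414 by limma). It was 0.19 without tBA replicate 3 and 0.50 without tBA replicate 1. The dimmer probe read 4.02, 4.16 and 3.73 in vehicle and 3.85, 4.30 and 4.49 with tBA, a difference of 0.24 (SE 0.20, adjusted p = 0.557 by limma). The SD of the gap between these probes was 0.054.

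The CYP2A differences moved with the slide. Within slide 1, where tBA replicate 1 stands against the 3 vehicle arrays, Cyp2a1 differed by 0.11 and Cyp2a2 by -0.01. The slide 2 arrays differed from vehicle by 0.62 in Cyp2a1 and 0.50 in Cyp2a2. With 1 tBA array on slide 1 and no vehicle array on slide 2, the part of slide and scan day was not tested.

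The female-predominant and the male form were set against each other within each array, which takes out what both probes share. Cyp2a1 minus Cyp2a2 was -0.73, -0.66 and -0.80 in vehicle and -0.61, -0.54 and -0.68 with tBA. The groups overlapped. The shift was 0.12 (vehicle -0.73, SD 0.070, n = 3; tBA -0.61, SD 0.071, n = 3), with an exact two-sided permutation p of 0.2, where 3 against 3 cannot go below 0.1. The third CYP2A gene on the array, Cyp2a3, known from lung and nasal tissue, was well above background on none of the 6 arrays.

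Cyp2d1 encodes the debrisoquine hydroxylase, the rat counterpart of the polymorphic human enzyme. It read 8.882, 8.874 and 8.827 in vehicle and 8.998, 8.981 and 9.011 with tBA. Every tBA array exceeded every vehicle array, by a small margin. The difference was 0.14 (SE 0.077, 95% interval -0.05 to 0.32, adjusted p = 0.421 by limma). This SE exceeded the SD of either group (0.030 in vehicle and 0.015 with tBA), as limma draws a probe's variance towards the common one. Cyp2d1 was among the least variable genes in vehicle, with an SD of 0.030 (n = 3) and 95.1% of genes varying more. Those were tested genes of any brightness, and the part of brightness in this was not tested.

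Cyp2d5, another hepatic CYP2D enzyme, behaved much the same. Its brighter probe read 9.06, 9.11 and 9.02 in vehicle and 9.22, 9.19 and 9.22 with tBA, with no overlap. The difference was 0.15 (SE 0.079, 95% interval -0.05 to 0.34, adjusted p = 0.402 by limma). The dimmer probe read 7.61, 7.68 and 7.54 in vehicle and 7.63, 7.72 and 7.70 with tBA. Here tBA replicate 1 lay within the vehicle range, and the difference was 0.08 (SE 0.085, adjusted p = 0.665 by limma), so the separation of the groups held for 1 of the 2 probes.

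Cyp2d3 had the smallest p of the 8 genes. It read 5.28, 5.26 and 5.13 in vehicle and 5.45, 5.51 and 5.47 with tBA. The tBA arrays were close together, all above the vehicle arrays. The difference was 0.26 (SE 0.086, 95% interval 0.05 to 0.47), with an unadjusted p of 0.0227 and an adjusted p of 0.269 by limma.

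Cyp2d4 encodes a CYP2D enzyme also known from brain. It read 5.05, 4.98 and 4.75 in vehicle and 5.08, 5.26 and 5.20 with tBA. The groups did not overlap, though tBA replicate 1 and vehicle replicate 1 nearly touched. The difference was 0.26 (SE 0.11, 95% interval -0.02 to 0.53, adjusted p = 0.333 by limma), and 0.17 without vehicle replicate 3.

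Cyp2d2 was the CYP2D gene whose groups overlapped. It read 5.93, 5.79 and 5.82 in vehicle and 5.93, 6.06 and 6.01 with tBA. Vehicle replicate 1 and tBA replicate 1 shared a value to 2 decimals. The difference was 0.15 (SE 0.089, 95% interval -0.06 to 0.37, adjusted p = 0.432 by limma).

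Read by their brightest probes, the 5 CYP2D genes kept most of their difference within slide 1, at 0.08 for Cyp2d2 and 0.23 for Cyp2d3, with the other 3 between. Their size rested on the scaling and on the background correction. The 75th percentile was 594 to 639 scanner units in vehicle and 570 to 584 with tBA, a mean log2 gap of -0.11. Before scaling, Cyp2d1 signals were 280166, 295928 and 290227 in vehicle and 298840, 287897 and 294118 with tBA, and the groups overlapped. Without scaling Cyp2d1 differed by 0.02, Cyp2d5 by 0.03, Cyp2d2 by 0.04, Cyp2d4 by 0.14 and Cyp2d3 by 0.15. Only 1 of the 8 genes, against 4 with scaling, then had groups that did not overlap. The share of all genes in that setting is not given. The median of all genes without scaling was -0.11 and the members' median 0.14, so that the unscaled differences are relative to a general shift. Of the 53 probes called without scaling, 26 were higher and 27 lower. With quantile normalization all 5 CYP2D differences were smaller than in the main fit, from 0.05 in Cyp2d2 to 0.17 in Cyp2d4. With median scaling all 5 were larger, from 0.21 in Cyp2d1 to 0.33 in Cyp2d3. With normexp background correction Cyp2d3 differed by 0.15, Cyp2d2 by 0.09 and Cyp2d1 by 0.13, while Cyp2d5 (0.21) and Cyp2d4 (0.27) were larger than in the main fit. The CYP2D genes are close copies, and whether a probe reads more than 1 of them was not tested.

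**Figure D2:**
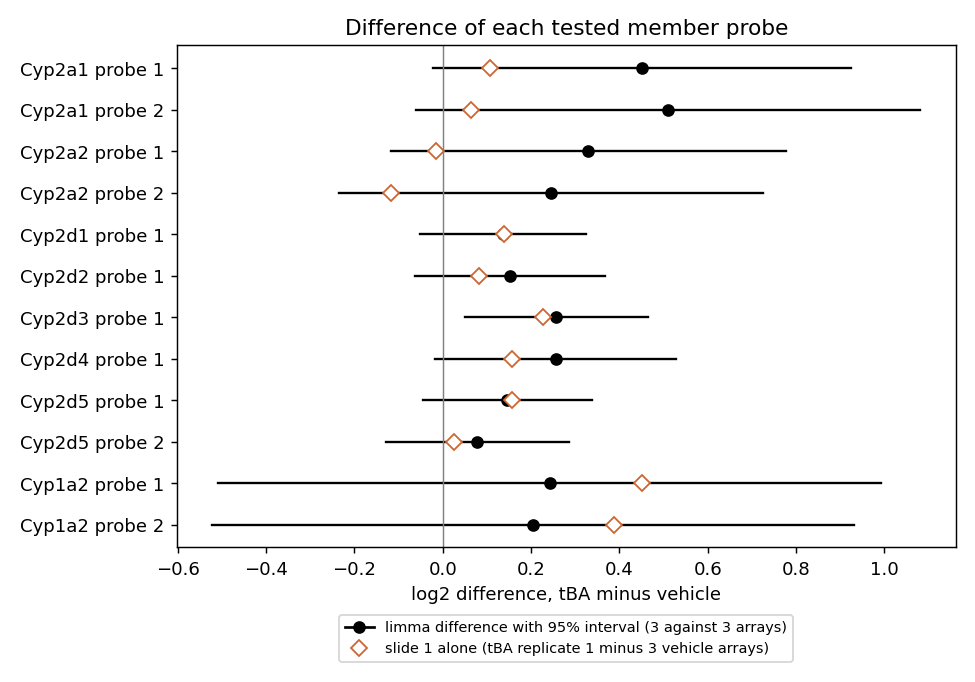
Log2 difference, tBA minus vehicle (x axis), of the 12 member probes tested (y axis, probe 1 the brighter); filled points are limma differences with their 95% intervals over 3 against 3 arrays, open diamonds the difference within slide 1. The interval excludes 0 only in Cyp2d3, and the diamonds lie near 0 for both CYP2A genes but near the filled point for Cyp2d1, Cyp2d3 and the brighter probe of Cyp2d5.

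Cyp1a2, the constitutive hepatic CYP1 enzyme, which oxidises caffeine and aromatic amines, was the most variable member. Its brighter probe read 5.29, 5.12 and 4.13 in vehicle and 5.30, 5.00 and 4.98 with tBA. Vehicle replicate 3 was well below the other 5 arrays, which lay close together. The difference was 0.24 (SE 0.31, 95% interval -0.51 to 0.99, adjusted p = 0.715 by limma), and without vehicle replicate 3 it was -0.11. The dimmer probe gave the same picture, at 3.22, 3.04 and 2.09 in vehicle and 3.17, 2.87 and 2.93 with tBA, a difference of 0.20 (SE 0.30, adjusted p = 0.753 by limma). The gap between the 2 probes had an SD of 0.038 over the 6 arrays, so the low value was read by both. The vehicle SD of 0.62 (n = 3) was exceeded by 3.90% of genes. The interval of the fold, 0.703 to 1.99, was the widest of the 8 genes.

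Vehicle replicate 3 was the lowest array for 11 of the 12 member probes tested, and a slide 2 array was the highest for 10 of them. The 12 probes read only 8 genes, and the same shares over all probes are not given. The members' median on each array, relative to the vehicle mean, was 0.05, 0.05 and -0.13 in vehicle and 0.15, 0.25 and 0.21 with tBA. Without vehicle replicate 3 the median difference was 0.15, and 7 of the 8 genes were higher. Within slide 1 it was also 0.15, with Cyp2a2 the gene that was not higher. Without tBA replicate 1, 7 of the 8 genes had groups that did not overlap. That split sets slide 2 tBA arrays against slide 1 vehicle arrays, and the share of all genes in it is not given.

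Cyp1a1, the CYP1 gene that is nearly silent in liver until AhR is activated, was well above background on none of the 6 arrays. Its probe gave processed signals of 4.039, 7.857 and 4.329 in vehicle and 3.997, 4.097 and 3.495 with tBA, with its highest value in a vehicle array. The lowest signal counted as well above background was 16.1, 11.9 and 17.4 on the vehicle arrays and 16.6, 15.5 and 13.4 on the tBA arrays. Every reading of Cyp1a1 was thus below the limit of its array, and no fold was given.

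Cyp1b1, a CYP1 enzyme expressed mainly outside the liver, was likewise well above background on none of the arrays with either of its 2 probes. The first gave 4.363, 3.166 and 4.589 in vehicle and 4.159, 3.999 and 5.081 with tBA. The second gave 3.44, 2.55 and 3.71 in vehicle and 3.49, 3.38 and 2.83 with tBA. The groups overlapped for both probes, and all values lay below the same limits. These readings bound the signals from above and do not show that the transcripts are absent.

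**Figure D3:**
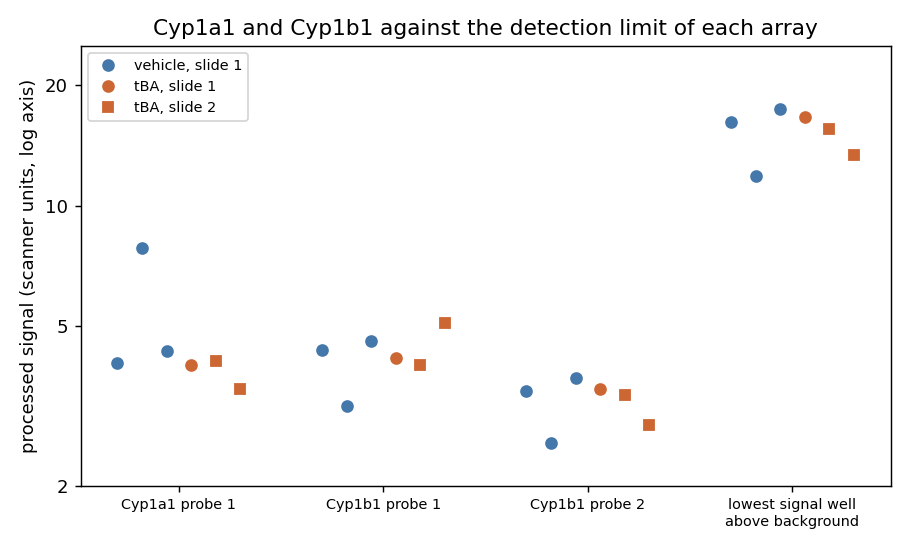
Processed signal in scanner units on a log axis (y axis) of the probe of Cyp1a1 and the 2 probes of Cyp1b1, beside the lowest signal called well above background on each array (x axis); points are single arrays, blue for vehicle and orange for tBA, squares for slide 2. All 18 member readings lie between 2.55 and 7.86, below the limits of 11.9 to 17.4.

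The AhR pathway around CYP1 was measured in a list of 7 genes of the receptor complex, all tested. Of these 5 were higher and 2 lower, 1 had an unadjusted p under 0.05 and none an adjusted one, and the median was 0.26. Ptges3, the p23 co-chaperone of the unliganded receptor, read 5.05, 5.06 and 5.06 in vehicle and 5.49, 5.59 and 5.30 with tBA, a difference of 0.40 (SE 0.10, adjusted p = 0.216 by limma). Its groups did not overlap. Ahr itself differed by 0.52 (SE 0.30, adjusted p = 0.432 by limma) with overlapping groups, and by 0.20 without vehicle replicate 3.

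Outside CYP1, 4 of the 7 genes in the list of AhR targets were tested, 2 higher and 2 lower, with a median of -0.03 and none with an adjusted p under 0.05. Ugt1a6, a glucuronosyltransferase for planar phenols, read 7.12, 7.19 and 7.13 in vehicle and 7.67, 7.91 and 7.91 with tBA, a difference of 0.68 (SE 0.10, adjusted p = 0.115 by limma). All tBA arrays were above all vehicle arrays, and 2 of its 3 tested probes were higher. It was called under 1 of 21 alternatives, an intensity trend in eBayes (adjusted p = 0.0437), and the mean of its probes differed by 0.39. Nqo1, a quinone reductase shared with the NRF2 response, read 1.42, 1.35 and 1.35 in vehicle and 1.87, -0.91 and 1.05 with tBA, a difference of -0.70 (SE 0.67, adjusted p = 0.615 by limma). This rested on tBA replicate 2, without which it was 0.09, and within slide 1 it was 0.50. Ahrr, the receptor's repressor and a sensitive AhR target, was well above background on none of the arrays, like Cyp1a1 and Cyp1b1.

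Partners of the microsomal P450 enzymes were listed too. The 6 electron donor genes had a median of 0.05, with 4 higher, 2 lower and none called after adjustment. Por, the P450 reductase, read 3.91, 3.90 and 3.49 in vehicle and 4.14, 4.33 and 4.13 with tBA, a difference of 0.43 (SE 0.14, adjusted p = 0.269 by limma). Cyb5a, cytochrome b5, differed by 0.30 (SE 0.083, adjusted p = 0.231 by limma). Neither gene's groups overlapped. The 12 genes of haem synthesis and breakdown had a median of 0.02, with 7 higher, 5 lower and none called. Uros, which closes the porphyrin ring, differed by 0.34 (SE 0.11, adjusted p = 0.263 by limma), and Hmox1, which opens haem, by -0.48 (SE 0.17, adjusted p = 0.279 by limma).

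The 10 liver transcription factors had a median of -0.12, with 4 higher, 6 lower and none called. Hnf4a, a hepatocyte nuclear receptor, differed by 0.21 (SE 0.11, adjusted p = 0.400 by limma) with overlapping groups. Onecut1 (HNF6), a growth hormone-dependent activator, read 5.03, 5.76 and 5.12 in vehicle and 1.91, 4.03 and 2.38 with tBA, a difference of -2.53 (SE 0.55, adjusted p = 0.189 by limma). Every tBA array was below every vehicle array. Cebpa, a hepatocyte factor, differed by -0.57 (SE 0.14, adjusted p = 0.216 by limma). PAR bZIP factors carry circadian timing to P450 genes, and their list also held Nfil3, a bZIP factor outside the PAR group. Of its 4 genes 3 were tested, with a median of -0.90. The 2 PAR factors tested, Dbp and Tef, were lower, and Nfil3 differed by 0.11 (SE 0.28, adjusted p = 0.871 by limma). Dbp read 4.59, 5.82 and 5.55 in vehicle and 3.21, 2.54 and 2.62 with tBA, a difference of -2.53 (SE 0.35, adjusted p = 0.0984 by limma), and Tef differed by -0.90 (SE 0.19, adjusted p = 0.187 by limma). The labels used here gave no hour of sampling.

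The 7 xenosensing nuclear receptors had a median of 0.27, with 5 higher, 2 lower and none called. Nr1i3 (CAR), a sensor of phenobarbital-like compounds, differed by 0.89 (SE 0.31, adjusted p = 0.282 by limma), or by 0.55 without vehicle replicate 3. Nr1i2 (PXR) differed by 0.27 (SE 0.097, adjusted p = 0.286 by limma). Nr3c1, the glucocorticoid receptor, read 1.87, 1.89 and 1.90 in vehicle and 1.58, 1.56 and 1.56 with tBA, a difference of -0.32 (SE 0.076, adjusted p = 0.204 by limma).

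The growth hormone axis, to which the sex difference of CYP2A genes is tied, held the 1 gene of these lists that passed the adjusted threshold. Socs2, a feedback inhibitor of the hormone's receptor, read 1.36, 1.32 and 1.34 in vehicle and -0.86, -0.44 and -0.22 with tBA, and fell by 1.85 (SE 0.17, adjusted p = 0.0308 by limma). The call was lost under 10 of 21 alternatives, including each of the fits without 1 array other than tBA replicate 1, where adjusted p ran up to 0.156. The difference itself stayed between -1.67 and -1.99 with 1 array left out and between -1.61 and -2.21 over all alternatives. In the list as a whole, 8 of 9 genes were tested, 3 higher and 5 lower, and the median was -0.15. Cish, another feedback inhibitor, differed by -2.39 (SE 0.58, adjusted p = 0.207 by limma), and by -1.79 as the mean of its probes. The next smallest p-values in the list were those of Jak2, which differed by -0.21 (SE 0.094, adjusted p = 0.342 by limma), and Stat5b, which was higher by 0.17 (SE 0.092, adjusted p = 0.412 by limma). The other sex-dependent liver cytochromes, 7 in all, had a median of 0.02, with 4 higher, 3 lower and none called. Cyp2c11, the main male-specific form, read 8.53, 8.47 and 8.18 in vehicle and 8.49, 7.41 and 8.34 with tBA, a difference of -0.31 (SE 0.29, adjusted p = 0.612 by limma) that was 0.02 without tBA replicate 2. Cyp3a9, a female-predominant form, differed by 0.70 (SE 0.32, adjusted p = 0.345 by limma), with overlapping groups. It differed by 0.39 without tBA replicate 2 and by 0.28 within slide 1.

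Cyp1a2 lies around the central vein of the lobule, and zonation genes were therefore listed. The 8 pericentral genes had a median of -0.15, with 3 higher, 5 lower and none called. Glul, glutamine synthetase of the innermost hepatocytes, read 3.58, 3.78 and 3.40 in vehicle and 2.76, 2.14 and 2.68 with tBA, a difference of -1.06 (SE 0.19, adjusted p = 0.162 by limma). Cyp2e1, the ethanol-oxidising pericentral P450, read 8.73, 8.56 and 8.37 in vehicle and 9.12, 9.38 and 9.23 with tBA, a difference of 0.69 (SE 0.13, adjusted p = 0.164 by limma). These 2 pericentral genes lay on opposite sides of vehicle, each without overlap. The 8 periportal genes had a median of 0.26, with 5 higher, 3 lower and none called. Arg1 of the urea cycle differed by 0.34 (SE 0.11, adjusted p = 0.262 by limma) and Gls2, liver glutaminase, by 0.42 (SE 0.14, adjusted p = 0.268 by limma), or by 0.27 without vehicle replicate 1.

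**Figure D4:**
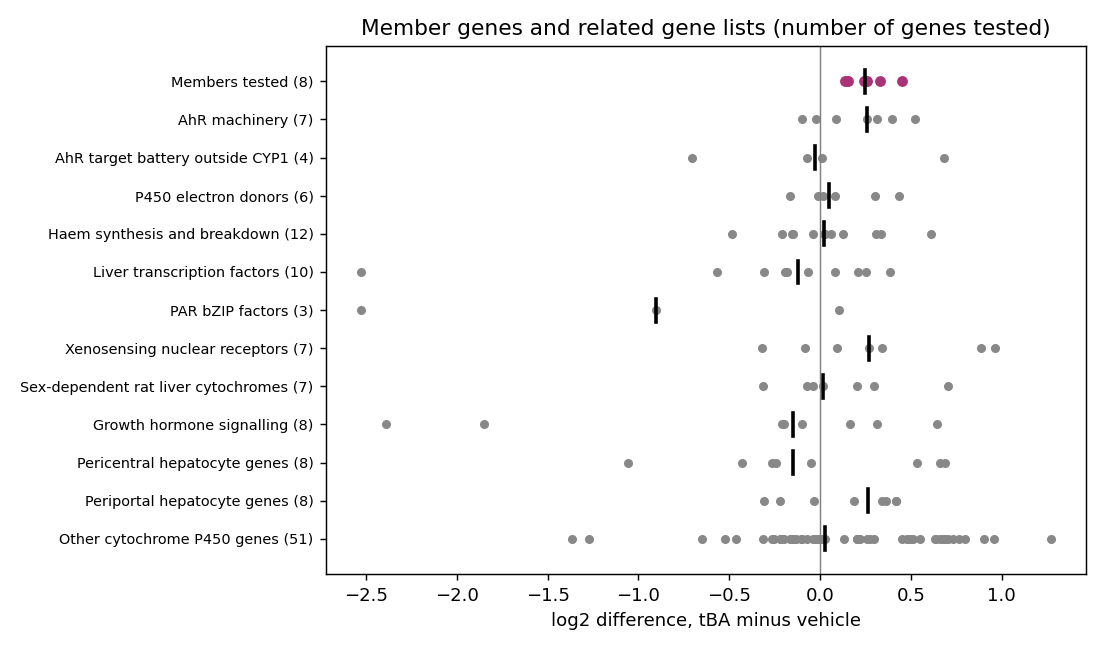
Log2 difference, tBA minus vehicle (x axis), of the 8 member genes tested and of the genes of each related list (y axis, number tested in brackets); each point is a gene and the black bar is the list's median. The members lie between 0.14 and 0.45, while each related list spreads to both sides of 0.

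Markers of other cell types gave no adjusted call. Of stellate and fibroblast markers 7 of 8 were tested, all 7 lower, with a median of -0.13 and a summed linear signal of 25.9 to 33.3 in vehicle and 21.1 to 28.6 with tBA. Of 6 macrophage markers 1 was higher and 5 lower, summed 90.7 to 112 in vehicle and 91.9 to 97.0 with tBA, and of 4 endothelial markers tested 3 were higher, summed 43.1 to 48.7 and 50.8 to 53.2. The 6 hepatocyte markers, 3 higher and 3 lower, had a median of -0.07. The part of cell makeup in the members' differences was not tested.

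Set among the other cytochromes the members held the middle. Of 59 P450 genes tested, Cyp2a1 ranked 19 and Cyp2a2 20 from the highest difference, Cyp2d3, Cyp2d4 and Cyp1a2 ranked 24 to 26, and Cyp2d2, Cyp2d5 and Cyp2d1 ranked 30 to 32. Of the 51 others, 27 were higher and 24 lower, none with an adjusted p under 0.05, and their median was 0.03. At the top were Cyp2b2 (1.27, SE 0.29, adjusted p = 0.199 by limma), Cyp2j4 (0.96, SE 0.20, adjusted p = 0.187) and Cyp2b1 (0.90, SE 0.18, adjusted p = 0.174). Cyp2b1 and Cyp2b2 are the classic phenobarbital-inducible forms. Cyp2b2 read 5.82, 4.93 and 5.04 in vehicle and 6.23, 6.94 and 6.43 with tBA, without overlap. At the bottom were Cyp7a1, which starts bile acid synthesis (-1.37, SE 0.69, adjusted p = 0.380 by limma), and Cyp51 of cholesterol synthesis (-1.27, SE 0.42, adjusted p = 0.268). Cyp7a1 differed by -0.86 without vehicle replicate 1 and by -2.21 without vehicle replicate 3. Within slide 1 the differences were 0.57 for Cyp2b1, 0.55 for Cyp2j4 and -0.69 for Cyp51. The next lowest value was that of Cyp2j10 (-0.65), but its tBA replicates 1 and 2 read below the detection limit of their arrays, so its rank is uncertain. It was 0.0066 with normexp background correction and -0.37 without tBA replicate 1.

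**Figure D5:**
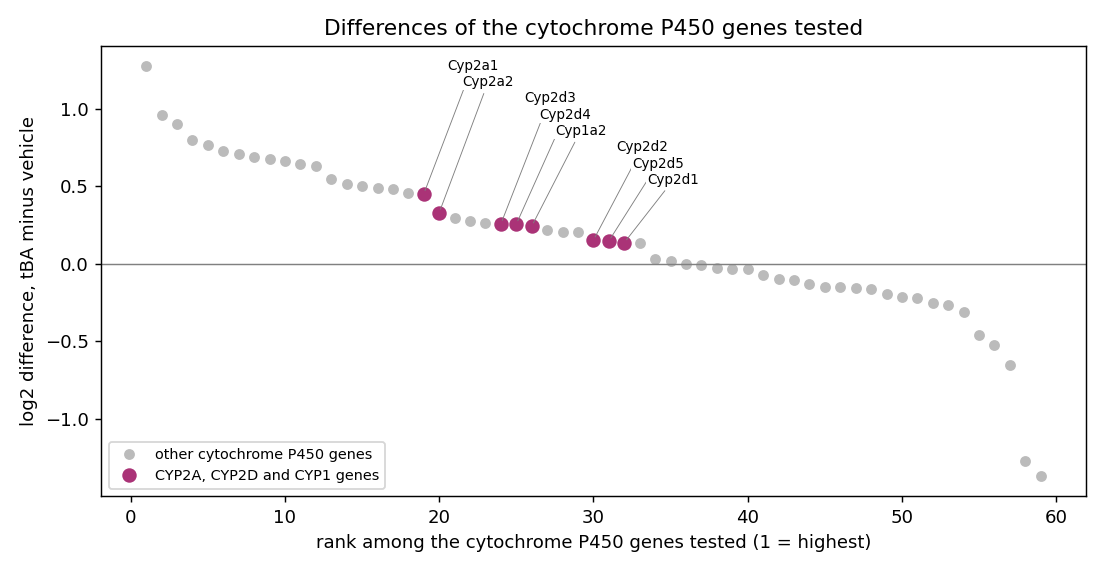
Log2 difference, tBA minus vehicle (y axis), of the 59 cytochrome P450 genes tested, ordered from the highest (x axis, rank 1) to the lowest; purple points are the 8 members and grey points the other 51. The members occupy ranks 19 to 32, all above 0, with 18 other P450 genes above them.

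The genes most like a member over the 6 arrays were found by the root mean square distance between log2 profiles, each relative to its own mean, among 11077 tested genes with a value on all 6 arrays, without those known only by a locus number. For Cyp2d5 they were Proc (0.017), Itm2b (0.019) and Cyp2d1 (0.020), all within 0.020 of it. For Cyp2d3 they were Ethe1 (0.028), Tas2r126 (0.029) and Anp32b (0.030), and for Cyp2d4 they were Tcf20 (0.028), Gsta6 (0.033) and Abraxas1 (0.038). These distances describe the 6 arrays.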

How the data were processed

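Total liver RNA of 6 rats was read on Agilent arrays in 1 colour (Cy3). The deposited intensity values are background-subtracted processed signals that the authors made with Agilent Feature Extraction, version 10.7.1.1 per the file headers and 10.7 per the submitters' processing notes. The deposited series table is a linear ratio: each array's signals divided by 1 constant (570 to 639, near its 75th percentile), uncentred, with column medians of 0.0950 to 0.102. The arrays' annotation uses rn4, per the file headers, so no gene coordinates are given; promoter coordinates are those of RefSeq's GRCr8 table.

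Log2 processed signals were scaled to each array's 75th percentile, control spots left out and 3 to 16 outlier spots per array treated as missing. The 37647 probes that were well above background throughout 1 group or both were fitted in R 4.3.3 with limma 3.58.1 (lmFit, eBayes), with Benjamini-Hochberg adjustment over all of them and a threshold of 0.05. A gene took its brightest tested probe. Of 29123 probes with an NM accession, 27348 were named through RefSeq, and 27460 of 61657 in all. Members, gene lists and tests were chosen with earlier results of these data known. Besides all members, up to 4 genes per list by smallest p, any list gene past the threshold and the 3 highest and lowest other P450 genes could be named; some of these are only counted. Profiles were compared for the 3 members with the largest difference among those whose groups did not overlap. Alternatives were the background correction (normexp with an offset of 50, run on median rather than mean spot signals), the normalization, the filters, the slide, the replicate block and each array left out. Simulated data had 37629 probes, 10 datasets and 200 changed probes in each. On them the comparison of tBA with vehicle recovered 62.8% of 2-fold, 93.6% of 4-fold and 97.6% of 8-fold changes, with 4.78% of calls false. The simulated noise was independent and normal, with variances shuffled between probes and no slide or array effect. No change under 2-fold was simulated, so these rates do not cover differences of the members' size. The small number of arrays limits the precision, and the slide and the scaling bear on it as given with the results. Python 3.11.15, numpy 2.4.6, pandas 2.3.3 and matplotlib 3.10.9 were used.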

Additional observations from a re-analysis of the deposited data

How the results depend on the processing

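No member gene was called under any of 21 alternatives, and 7 or 8 of the 8 were higher in each. The members' median difference (0.25) was 0.16 with quantile normalization, 0.15 with slide 1 alone and with slide as a fixed block, 0.14 with no scaling between arrays, and 0.15 to 0.30 when 1 array was left out. The number of members whose groups did not overlap (4) was 1 with no scaling and 4 to 7 when 1 array was left out. The share of all genes without overlap is given only for the scaled signals of all 6 arrays. Groups of fewer arrays separate more easily, so the counts with 1 array left out are not comparable with it. Counting overlap, counting higher members and leaving out the scaling were chosen after seeing the data. Probes called (42) numbered 85 with a floor on dim signals, 68 with an intensity trend in eBayes, 18 with no filter on dim probes, 0 with the filter on all 6 arrays, 0 with slide 1 alone, 20 with slide as a fixed block and 6 to 45 when 1 array was left out. The genes called (5) numbered 10 with the floor, 12 with the trend, 1 with no filter, 0 with the filter on all 6 arrays, 0 with slide 1 alone, 2 with slide as a fixed block and 0 to 9 when 1 array was left out. Of the probes called, 61.9% were higher, with 49.1% under no scaling, 40.0% with slide as a fixed block, 42.2% without tBA replicate 1 and 73.7% without vehicle replicate 2.

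Same-numbered arrays did not deviate together (r of -0.0562, -0.0643 and 0.0141 over 37629 probes), so no pairing by number was seen. The check cannot show that the animals were unpaired. With a replicate block 6 probes and 0 genes were called. Direction turned for Cyp1a2 without vehicle replicate 3 (range with 1 array left out, -0.11 to 0.46) and for Cyp2a2 with slide 1 alone and with slide as a fixed block (-0.014 in both). For Nqo1 it turned in the same slide settings (0.50) and without tBA replicate 2 (range, -1.31 to 0.089). It also turned for Cyp2c11 in the slide settings (0.094) and without tBA replicate 2 (range, -0.52 to 0.022) and for Cyp2j10 with normexp (0.0066). Apart from the slide settings, for which slide and treatment are partly confounded, the cause was not tested. The difference between Cyp2a1 and Cyp2a2 ranged from 0.086 to 0.16; it has no value under the trend, the random slide block or the mean of probes, and the last gives no count of probes.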
